A study of Oryza sativa with 4 samples.

Results

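OSH1, OSH3, OSH6, OSH43 and OSH71 are KNOX homeobox genes of rice (Oryza sativa), and their transcripts were followed in shoots of submerged seedlings. The 5 genes were identified by gene number as LOC4333973, LOC4333975, LOC4325788, LOC4334261 and LOC4337701, out of 17905 genes with an annotated probe set on the Affymetrix rice array. Together they have 7 probe sets, 2 each for OSH1 and OSH43 and 1 each for the other genes. Seedlings aged 18 days were used, either of M202, a submergence-sensitive japonica rice, or of M202(Sub1), that cultivar with the introgressed Sub1 tolerance locus. Both were kept fully under water in a greenhouse for 1 day or 6 days before shoots were taken for RNA. Each of the 4 combinations was measured on 1 array, all groups were submerged, and no unsubmerged plants were compared. How many plants made up a sample is not given in the labels. Without replicates a difference between arrays has no error estimate, and an effect of the array or of the sampled tissue piece cannot be told apart from genotype or time.

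KNOX proteins are transcription factors of the TALE homeodomain class that bind DNA together with BELL partners. Class I members, to which all 5 genes belong, are active in the shoot apical meristem and young stem, keep cells there undifferentiated and are switched off where a leaf is initiated. In rice OSH1 is needed to maintain the shoot meristem and acts on its own locus and on genes that break down brassinosteroids. Class I KNOX proteins are also known to hold back gibberellin synthesis and to raise cytokinin synthesis.

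Expression is given as the deposited log2 value, in which a difference of 1 is 2-fold. The median of all values was 5.51, and values under it are marked as low. No detection call was used, so a low value is not a statement that a transcript was absent. Of the 28 member values 20 were low. The array medians lay between 5.48 and 5.53. Photosynthesis genes, the defining markers of a green shoot, stood at 10.97 to 14.32 in 8 of 9 cases, and RBCS1 was low on every array. Their summed linear level was 109970 and 80525 in M202 at 1 and 6 days and 105806 and 83433 in M202(Sub1). Of 10 root genes 6 reached the median on some array, with LSI1 at 7.33 to 8.13 and the phosphate transporter gene PT6 at 2.52 to 2.66. The summed level of the root genes ranged from 691 to 775.

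OSH1 was high on 2 of the 4 arrays and low on the other 2, and the pair that was high crossed genotype and time. Its second probe set stood at 6.41 in M202 after 1 day, 3.08 in M202 after 6 days, 2.84 in M202(Sub1) after 1 day and 6.00 in M202(Sub1) after 6 days. The first probe set gave 6.11, 4.10, 3.76 and 5.97 in the same order. Both probe sets thus put the same arrays on top, M202 at 1 day and M202(Sub1) at 6 days, and those were the only arrays on which OSH1 lay above the median. The suffix of the first set's name marks probes that may also bind other transcripts. The second set was the higher of the pair on the arrays where OSH1 was high and the lower of the pair on the others, so its swing was wider.

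**Figure D1:**
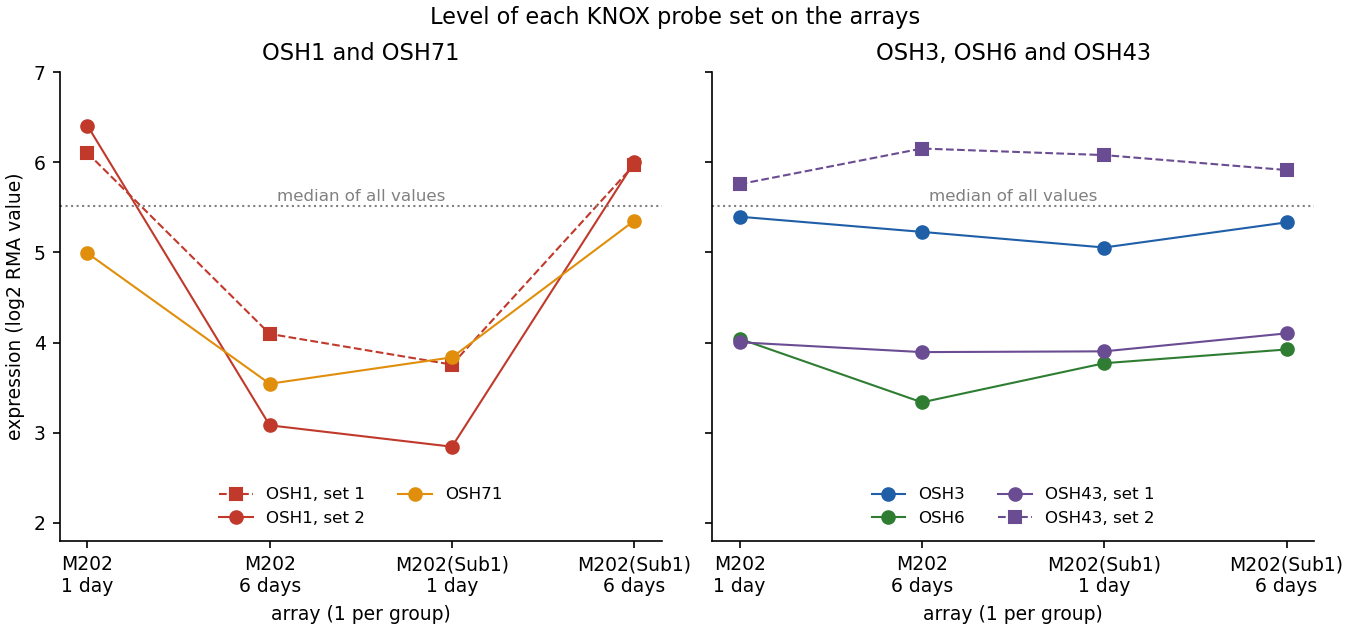
Log2 RMA value of each KNOX probe set (vertical axis) on the 4 arrays (horizontal axis, 1 array per group). Lines only join the values of a probe set, broken lines with squares mark sets whose names warn of cross-hybridisation, and the dotted line is the median of all values, 5.51. OSH1 and OSH71 have their higher values in M202 at 1 day and M202(Sub1) at 6 days, with OSH71 under the median on every array. Each other probe set varies by at most 0.71.

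OSH71, also named HOS9, was highest on the same pair of arrays as OSH1. Its single probe set read 4.99 in M202 at 1 day, 3.54 in M202 at 6 days, 3.84 in M202(Sub1) at 1 day and 5.35 in M202(Sub1) at 6 days. All 4 values were under the median, and the highest and the lowest differed by 1.81. Within each pair the order was the reverse of that in OSH1, with M202(Sub1) at 6 days on top and M202 at 6 days lowest.

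OSH6, OSH3 and OSH43 varied less. OSH6 (HOS16) stood at 4.04 and 3.34 in M202 at 1 and 6 days and at 3.77 and 3.92 in M202(Sub1), low on every array and lowest in M202 at 6 days. OSH3 (HOS13) ranged from 5.06 to 5.40, close under the median, with its lowest value in M202(Sub1) at 1 day and its highest in M202 at 1 day. OSH43 gave 2 different readings. The first probe set was low throughout, from 3.89 to 4.10, whereas the second, whose suffix warns of cross-hybridisation, was above the median on every array at 5.76, 6.15, 6.08 and 5.91. The sets of OSH43 also ordered the arrays differently, with ranges of 0.21 and 0.40.

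Between the genotypes at 1 day, OSH1 and OSH71 stood apart and the other KNOX genes did not reach 2-fold. OSH1 was lower in M202(Sub1) by log2 differences of -3.56 in the second set and -2.35 in the first, or 11.8-fold and 5.10-fold. OSH71 was lower as well, at -1.16 or 2.23-fold. OSH3 (-0.34), OSH6 (-0.27) and the sets of OSH43 (-0.10 and 0.32) were less than 2-fold apart. A 2-fold lower value was thus seen in 3 of 7 KNOX probe sets, against 0.514% of all 57194 rice probe sets, and the median of the 7 was -0.34 against 0.01 over all. These 3 sets belong to 2 genes, and the genes were chosen with such differences already known.

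After 6 days the direction was the opposite. The second OSH1 set was higher in M202(Sub1) by 2.92 (7.57-fold), the first by 1.88 (3.67-fold) and OSH71 by 1.81 (3.50-fold). OSH6 differed by 0.59, OSH3 by 0.11, and the OSH43 sets by 0.21 and -0.24. Again 3 of 7 probe sets passed 2-fold, here upward, where 1.72% of all rice probe sets did, and their median was 0.59 against -0.01 over all. Apart from the OSH43 set with the cross-hybridisation mark, every KNOX set lay below 0 at 1 day and above 0 at 6 days. For OSH3, OSH6 and the first OSH43 set these were differences under 2-fold between low values. Of the named genes above the median 47.4% lay above 0 at 1 day and 50.3% at 6 days. How many changed sign as the KNOX sets did was not counted.

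The second question was how the genes differed between 6 days and 1 day within each genotype. In M202 the second OSH1 set was lower at 6 days by -3.33 (10.0-fold), the first set by -2.01 (4.02-fold) and OSH71 by -1.45 (2.73-fold). OSH6 was at -0.71, OSH3 at -0.17 and the OSH43 sets at -0.11 and 0.40. The 2-fold lower sets were 3 of 7, beside 3.65% of all rice probe sets. In M202(Sub1) the same probe sets were higher at 6 days, by 3.16 (8.92-fold) and 2.22 (4.65-fold) for OSH1 and by 1.52 (2.86-fold) for OSH71. OSH3 (0.28), OSH6 (0.15) and OSH43 (0.20 and -0.17) were less than 2-fold apart. Here 3 of 7 were at least 2-fold higher, beside 2.84% of all. All 4 differences are made from the same 4 values per probe set, so they are not independent of each other. The age of the plants is confounded with the length of submergence and cannot be told apart from it. In whole shoots, fewer meristem cells and less RNA per cell cannot be told apart either.

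**Figure D2:**
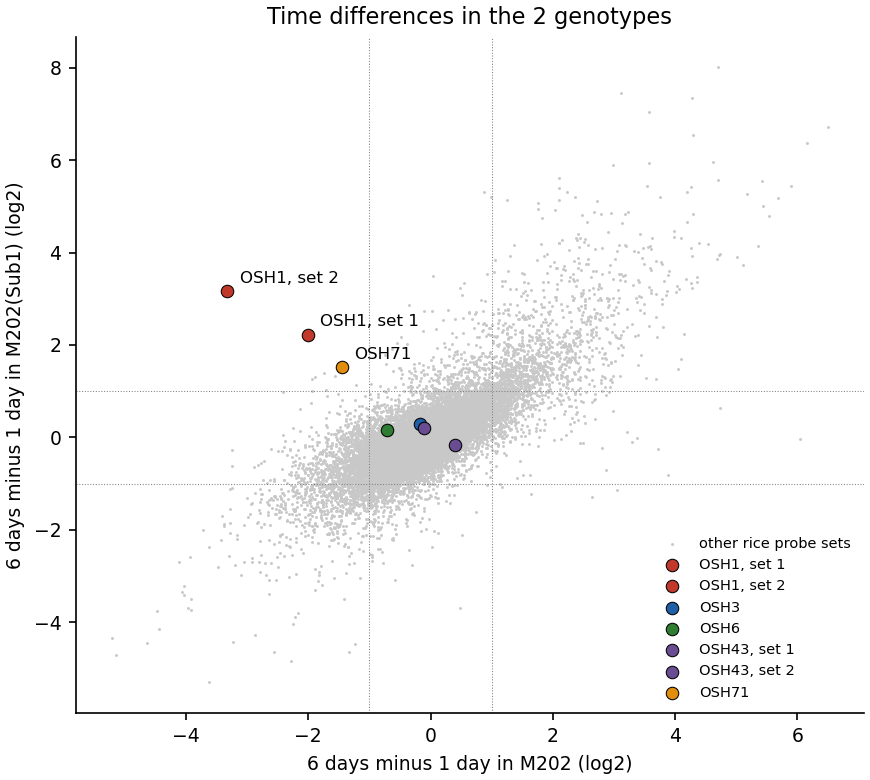
Log2 difference between 6 days and 1 day in M202 (horizontal axis) and in M202(Sub1) (vertical axis). Grey points are the 30476 rice probe sets that reached the median of all values on some array, coloured points are the KNOX probe sets, and dotted lines mark 2-fold. OSH1 and OSH71 lie in the upper left corner, lower with time in M202 and higher with time in M202(Sub1), outside the main cloud that runs from lower left to upper right.

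The time differences of the genotypes share no array, and for OSH1 they had opposite signs. Time in M202(Sub1) minus time in M202 came to 6.48 for the second OSH1 set, 4.23 for the first and 2.97 for OSH71. These sizes rest on low values. With values under the median set to the median they were 1.38, 1.05 and 0.00. OSH6 (0.86) and OSH3 (0.45) had the same sign and were under 2-fold, and the OSH43 sets were at 0.31 and -0.56. In all, 3 of 7 KNOX sets were at least 2-fold higher on this measure, against 1.93% of all rice probe sets. With 1 array per group this difference was not tested.

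An additive limma model over the 4 arrays tested genotype and time averaged over each other. It covers the 3 KNOX sets that reached the median on some array, both of OSH1 and 1 of OSH43. OSH1 reached it only through the arrays on which it was high. None of the 3 passed. The second OSH1 set had a mean genotype difference of -0.32 (Benjamini-Hochberg adjusted p = 0.965, limma) and a mean time difference of -0.09 (adjusted p = 0.979, limma), since its opposite differences cancel in the mean. Among all 30476 probe sets the model called 0.0164% for genotype and 9.73% for time. The interaction takes up the model's single residual degree of freedom, so the model cannot speak to the crossed pattern of OSH1.

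How far the OSH1 and OSH71 differences can be sized is limited by their low values. With every value under the median set to the median, the second OSH1 set differed by -0.89 at 1 day and 0.49 at 6 days, and OSH71 by 0.00. With values under the 25th percentile (3.94) set to it, a setting chosen after the data were seen, the same differences were -2.47 and 2.06 for OSH1 and -1.05 and 1.41 for OSH71.

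Genes beside OSH1 and OSH71 were less than 2-fold apart between genotypes at both times. On the current RefSeq map OSH1 and OSH3 lie close together on chromosome 3 with 1 gene between them, OSH43 lies on the same chromosome, OSH6 on chromosome 1 and OSH71 on chromosome 5. The gene between OSH1 and OSH3, LOC4333974, stood at 8.77, 8.86, 8.87 and 8.80 on the arrays, flat across genotype and time. Of the 10 nearest neighbours of OSH1, 7 had a probe set, and their genotype differences ran from -0.34 to 0.11 at 1 day and from -0.12 to 0.84 at 6 days. The gene between and OSH3 itself are among them. One neighbour, LOC4333977, had time differences more than 2-fold apart (1.12), at 5.44 and 4.39 in M202 and 5.16 and 5.23 in M202(Sub1) at 1 and 6 days, low on every array. The neighbours of OSH71 with a probe set, 4 of 10, differed between genotypes by -0.61 to 0.02 at 1 day and by -0.59 to -0.01 at 6 days. OSH1 overlaps a long noncoding RNA gene, LOC112938160, and OSH43 overlaps LOC4334260, a protein-coding gene at 5.39 to 5.84. Whether the probes of either KNOX gene also read the overlapping gene was not tested.

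Class II KNOX genes, which are active in differentiated tissue, did not show the crossed pattern. The class I genes OSH3, OSH6 and OSH43 did not show it at 2-fold either. Of the other KNOX genes 6 matched by name and 4 had a probe set, with no further class I gene among those 4. OSH45, HOS58, HOS59 and HOS66 all stood far above the median, from 9.20 to 12.79. HOS66 was lower in M202(Sub1) at both times, at 9.36 against 10.40 after 1 day and 9.20 against 10.49 after 6 days, differences of -1.03 and -1.28. It was the only one of the 4 to reach 2-fold between genotypes, where 1.79% of 15426 named genes did so at 1 day and 6.03% at 6 days. The difference between time differences lay between -0.41 and -0.13 in these genes. None of the 4 passed the additive model.

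Among genes known to act with or under KNOX proteins, hormone genes were mostly less than 2-fold apart between genotypes. Of 10 gibberellin genes, GA20OX2, a gibberellin 20-oxidase of the kind that KNOX proteins repress in tobacco, was the only one 2-fold apart at 1 day. It stood at 8.28 and 6.86 in M202 and at 9.34 and 7.83 in M202(Sub1) at 1 and 6 days, higher in M202(Sub1) at both times, and over time it fell by 1.47 (adjusted p = 0.029, limma). KAO, another synthesis gene, rose by 0.78 (adjusted p = 0.0488, limma), and the other 8 did not pass for time. Among those 8, GA20OX3, also a gibberellin 20-oxidase gene, stood at 8.09 and 9.90 in M202 and at 8.20 and 9.19 in M202(Sub1). It was thus higher at 6 days in both genotypes, opposite to GA20OX2. Its genotype differences were 0.11 at 1 day and -0.71 at 6 days. Genotype medians of the list were 0.14 at 1 day and 0.15 at 6 days, beside -0.01 and 0.00 over all named genes.

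The cytokinin list held 23 genes above the median. CKX5, a cytokinin oxidase gene, was at 7.51 and 6.08 in M202 and at 8.51 and 8.15 in M202(Sub1), a genotype difference of 1.01 at 1 day and 2.07 at 6 days. The activating enzyme gene LOGL3 was lower in M202(Sub1) at 6 days by -1.34 and the oxidase gene CKX4 by -1.01. With time 3 of the 23 genes rose and 1 fell in the additive model, which called 9.73% of all probe sets for time. Among them were LOGL5, up by 1.98 (adjusted p = 0.0281, limma), and RR5, which fell by 1.10 (adjusted p = 0.0382, limma). The 6-day values of RR5, 5.42 in M202 and 5.41 in M202(Sub1), were low. No IPT gene matched by name. Of 13 brassinosteroid genes none was 2-fold apart between genotypes at either time. CYP734A4 and CYP734A6, breakdown genes of the family that OSH1 acts on, differed by -0.39 and -0.40 at 1 day and by -0.39 and 0.05 at 6 days. BU1, a brassinosteroid response gene, fell by 2.05 over time (adjusted p = 0.028, limma) and was lower at 6 days in both genotypes.

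Other meristem regulators were compared on the same arrays. Of 12 with a probe set 8 reached the median, and their median genotype difference was -0.25 at 1 day and -0.01 at 6 days. The stem cell receptor gene FON1 stood at 9.22 and 8.56 in M202 and at 8.94 and 8.44 in M202(Sub1), with no crossing of genotype and time. FOS1, a signalling peptide gene, was lower at 6 days in both genotypes and fell by 1.69 (adjusted p = 0.0381, limma). ROC1, expressed in the outermost cell layer, differed between genotypes by 0.07 at 1 day and 0.20 at 6 days. SPL14, a regulator of branching, was higher in M202(Sub1) at 6 days by 1.55 and by 0.38 at 1 day. Its value in M202 at 6 days, 5.26, was low. WOX4, a meristem homeobox gene, lay between 5.35 and 5.64, low on 3 of the 4 arrays.

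Of 18 leaf development genes above the median, 15 had a higher value in M202(Sub1) at 6 days, where 50.3% of all named genes did, and the list median was 0.50. A 2-fold higher value was seen in 6 of the 18, and 6.03% of all named genes were 2-fold apart in either direction. At 1 day 9 were higher, 1 was 2-fold lower, and the median was -0.03. The growth-regulating factor genes GRF6 and GRF1, active in young growing tissue, differed by 2.23 and 2.21 at 6 days and by 0.90 and 0.40 at 1 day. RS2, the rice relative of the maize KNOX repressor ROUGH SHEATH2, was at 10.17 and 9.24 in M202 and at 10.03 and 9.75 in M202(Sub1). AS2 differed by -0.23 at 1 day and 0.26 at 6 days.

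Most markers of dividing cells were higher in M202(Sub1) at 6 days, as OSH1 was, and at 1 day they were not 2-fold apart. Of 13 such genes 12 reached the median, and at 6 days M202(Sub1) exceeded M202 by 2-fold or more in 9 of them, with a median of 1.34, where 6.03% of all named genes were 2-fold apart in either direction. At 1 day, when OSH1 was far lower in M202(Sub1), the 12 genes differed by only -0.25 to 0.21. The replication gene MCM3 stood at 8.67 and 6.97 in M202 and at 8.73 and 8.63 in M202(Sub1) at 1 and 6 days. The summed linear level of the 13 was 6163 and 2272 in M202 and 5943 and 4595 in M202(Sub1). In the additive model none of the 12 passed for genotype or time. Their part in the OSH1 difference at 6 days was not tested.

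The background for time was wider than that for genotype. In M202 16.1% of the 15426 named genes were 2-fold apart between times and in M202(Sub1) 10.9% were, and 5.8% had time differences that were 2-fold apart. On that last measure 10 of the 12 dividing cell genes, 5 of the 18 leaf development genes, 1 of 8 meristem regulators and 1 of 23 cytokinin genes were 2-fold higher, and no gibberellin, brassinosteroid, photosynthesis or class II KNOX gene was. Of the 6 root genes above the median 1 was 2-fold higher and 1 was 2-fold lower.

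**Figure D3:**
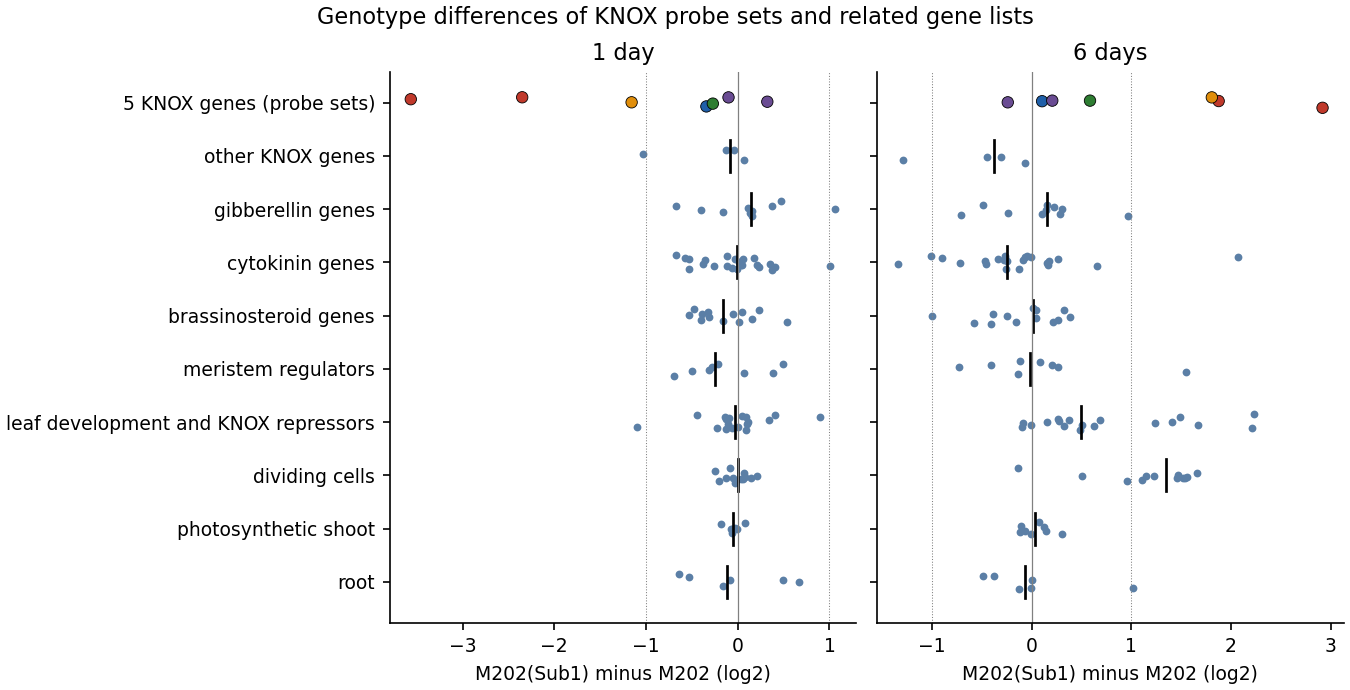
Log2 difference between M202(Sub1) and M202 at 1 day and at 6 days (horizontal axes) for the KNOX probe sets (coloured as in the plot of levels) and for genes of the related and marker lists that reached the median (blue points, 1 probe set per gene, vertical bar at the list median). Dotted lines mark 2-fold. At 1 day OSH1 and OSH71 lie left of every list gene, and at 6 days the dividing cell genes have a median of 1.34, with 11 of 12 on the same side of 0 as OSH1 and ORC2 at -0.13.

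The genes with the pattern most like that of OSH1 were sought by Euclidean distance between the 4 array values, each gene centred on its own mean. Among the 2194 genes above the median that have a symbol other than a LOC number, the nearest to the first OSH1 set was YABBY5 (OsYAB3, LOC4336518), at a distance of 1.05. YABBY5 belongs to a family of transcription factors of lateral organs. It stood at 6.69 in M202 and 5.59 in M202(Sub1) after 1 day, and at 4.99 and 6.49 after 6 days. It was thus highest on the same pair of arrays as OSH1, with genotype differences of -1.10 and 1.49. Unlike OSH1, YABBY5 was under the median only in M202 at 6 days. The metallothionein gene MT2C was next (12.77, 12.28, 11.79 and 13.07 in M202 at 1 and 6 days and M202(Sub1) at 1 and 6 days, distance 1.27), and then PSS1 (7.46, 6.88, 6.79 and 7.88, distance 1.35). For the second OSH43 set, the one marked for cross-hybridisation, the nearest were OsPP2C59, AMT1-2 and CYP76M6, at distances of 0.09 to 0.13. That set was nearly flat, with a range of 0.40, and OsPP2C59 was low on 3 of the 4 arrays. OSH71 was under the median and so outside this search. Over all 17905 genes at any level, a search made after the values were seen, LOC4348377 was nearest to OSH1 at 0.80 and OSH71 was the second nearest gene to OSH1 of 17904, at 0.85. OSH6 ranked 302 at 1.77, OSH3 ranked 873 at 1.89 and the second OSH43 set ranked 15341 at 2.41. A gene flat across the arrays would lie at 2.13, so OSH6 and OSH3 were little nearer to OSH1 than a flat gene. The first OSH43 set was not ranked.

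**Figure D4:**
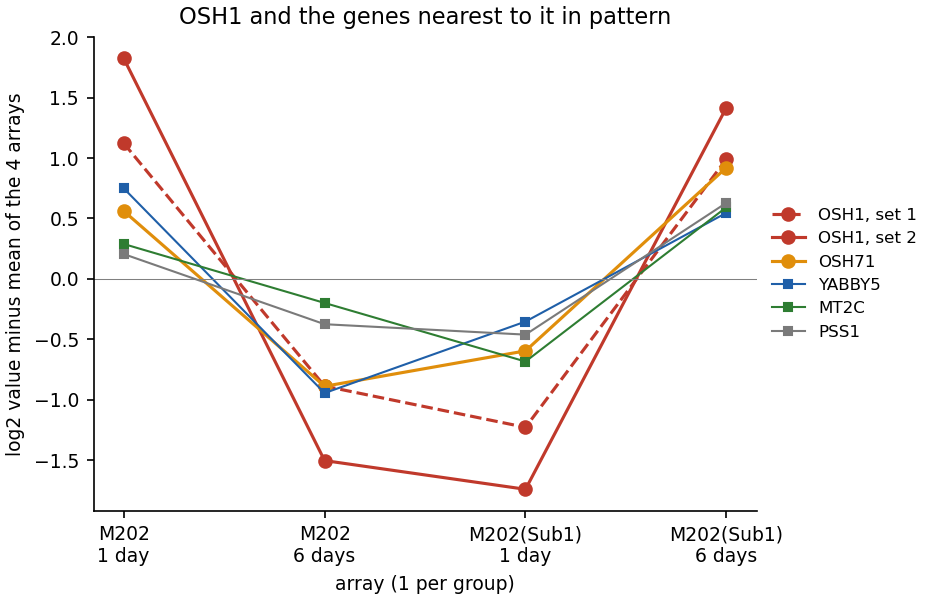
Log2 value minus the gene's mean over the 4 arrays (vertical axis) on each array (horizontal axis) for both OSH1 probe sets, OSH71 and the 3 named genes nearest to OSH1. All lie above their mean in M202 at 1 day and M202(Sub1) at 6 days and below it on the other arrays, with the widest swing in the second OSH1 set.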

How the data were processed

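Shoot RNA of 4 groups was measured on 1-colour Affymetrix arrays, 1 array per group, and the groups were taken from the titles. The deposited table holds log2 expression values for 57381 probe sets, which the authors obtained by RMA (robust multi-array average), per the submitters' processing notes. Which arrays it was run on together, and in which version, is not given in the sources used here. Near background the method can compress differences. Left out were 123 control and 64 reporter probe sets. The members and lists were chosen with earlier results of these data known. Probe sets were paired with genes through the platform annotation and RefSeq (assembly ASM3414082v1, used for names and gene order only). A gene in a list was represented by its probe set with the highest mean, and list genes by matching names, after 3 hits on other genes were removed. By rule, the text names all KNOX probe sets, up to 3 genes a list and contrast with the largest differences of at least 2-fold, tissue markers and the 3 nearest named patterns. KAO, RR5, FON1, ROC1, WOX4, APO2, RS2, AS2, the CYP734A genes, the class II KNOX genes and the neighbours fall outside it and were chosen for their roles, position or model result after their values were seen. No BELL gene matched by name. Differences were counted at 2-fold. The additive model of genotype and time used limma 3.58.1 (R 4.3.3, eBayes with trend) on sets reaching the median and adjusted by Benjamini-Hochberg over all of them at 0.05. Its p-values do not measure the spread between plants. Python 3.11.15, numpy 2.4.6 and pandas 2.3.3 did the rest. The genotype difference at 1 day and the additive model were tried on simulated data with a planted genotype shift. The differences over time, the crossed shape and the pattern distances were not tried in this way. The number of arrays limits the precision. Alternatives were other floors, normalizations, probe set rules and folds.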

Additional observations from a re-analysis of the deposited data

Results flagged for a closer look

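The time difference of OSH1 went opposite ways in the 2 genotypes, at least 2-fold in each, which the report could not test with 1 array per group. The difference between the time differences was 4.23 in the first OSH1 probe set (-2.01 in M202 and 2.22 in M202(Sub1)) and 6.48 in the second (-3.33 and 3.16). OSH71 met the same criterion at 2.97 (-1.45 and 1.52), with all 4 of its values under the median. These differences were not tested. With values under the median set to the median, the first OSH1 set gave 1.05, the second 1.38 and OSH71 0.00.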

How the results depend on the processing

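No paired analysis was possible because each group holds 1 array. The 2 KNOX genes counted at 2-fold in each of the 5 differences, OSH1 and OSH71, came to 0 when values under the median were set to the median, for both genotype and both time differences, and to 1 for the difference between time differences. The same counts, 0 and 1, resulted when probe sets marked for cross-hybridisation were also left out. Low values are what this setting removes. Of 200 single-gene values under alternatives 182 kept their side of 2-fold, 18 came under it, all where values were set to the median, and 0 changed sign among those past 2-fold. All 18 belong to OSH1 and OSH71, and OSH3, OSH6 and OSH43 were under 2-fold to begin with. For a gene with 1 probe set the probe set rules return the same value, so the 182 are a weak measure of stability. Without replicates, leaving out an array was not possible. All 50 list counts stayed within 1.5 times when probe sets were averaged. Among them are the counts of the BELL list, which holds 0 genes and so could not move. The additive model called 5 probe sets for genotype and 2966 for time. It called 20 and 4845 with quantile normalization, and 0 and 0 with no floor, where the cause was not tested. Signal under the median limits OSH3, OSH6, OSH71 and the first OSH43 set on every array and OSH1 on 2 of the 4. The second OSH43 set lies above the median but carries the cross-hybridisation mark.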

Other observations

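The crossed pattern of OSH1 was rare on these arrays. A count made after the values were seen took probe sets in which both M202 at 1 day and M202(Sub1) at 6 days stood at least 2-fold above both other arrays. It held 7 of 57194 rice probe sets, or 0.0122%, and 3 of the 7 were the OSH1 sets and OSH71. The shape was taken from OSH1 itself, and the KNOX genes were chosen with such differences already known. Their place among the 7 is therefore no separate support, and the OSH1 sets read the same gene on the same arrays. The other 4 were LOC4348377 (7.19, 5.45, 5.91 and 7.31 in M202 at 1 and 6 days and M202(Sub1) at 1 and 6 days), LOC4340708 (6.14, 4.70, 5.11 and 6.65) and a pair of probe sets unnamed here. The reverse shape, with the other arrays on top, was seen in 2 probe sets.

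LOC4348377 was also the gene nearest to OSH1 in pattern over all genes, at a distance of 0.80, followed by OSH71, LOC4345410 and LOC4340708. The inflorescence and meristem identity gene APO2, low on every array, stood at 5.04 and 4.51 in M202 and at 4.32 and 4.67 in M202(Sub1) at 1 and 6 days. Its difference between time differences, 0.87, had the sign of OSH1, as 52.1% of the named genes above the median did. The other meristem regulators that were low on every array included both signs.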
